A study of Rattus norvegicus with 12 samples.

Results

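The genes of heme synthesis and breakdown were followed in rat liver through 6 weeks of high-fat emulsion feeding. They were Alas1, Alas2, Alad, Uros, Urod, Cpox, Fech, Hmox1 and Blvrb, chosen by name: every probe set on the array whose gene symbol, or an older synonym of it, was one of these. All 9 genes were found, each by 1 probe set, among 31042 probe sets that carry no array control and 13892 named genes. The study fed Sprague-Dawley rats a high-fat emulsion to produce nonalcoholic fatty liver disease and measured total RNA from the middle of the right liver lobe on Affymetrix Rat Genome 230 2.0 arrays. The 12 arrays formed 4 groups of 3: liver after feeding for 2 weeks, 4 weeks and 6 weeks, and normal liver at 0h. The labels give every animal an age of 12 weeks and name no genetic change. They call the 3 arrays of a group technical replicates, and how many rats each group stands for is not stated in the labels. All p-values therefore measure only the spread between these arrays, and the 0h group differs from the fed groups in feeding and in time together.

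Heme is an iron-bearing ring that hemoglobin, cytochrome P450 enzymes, catalase and the respiratory chain carry. Its synthesis begins and ends in the mitochondrion: an ALA synthase joins glycine and succinyl-CoA, cytosolic enzymes assemble the ring, and ferrochelatase inserts the iron. Alas1 is the housekeeping ALA synthase and the rate-limiting one in liver, repressed by heme itself and induced by fasting and by drugs, whereas Alas2 is the form of red cell precursors. Heme oxygenase opens the ring to give biliverdin, iron and carbon monoxide, and biliverdin reductases turn biliverdin into bilirubin. In liver the resident macrophages, the Kupffer cells, take up aged red cells and recycle their heme.

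The deposited values are array signals on a linear scale, tested as log2(signal + 1) with limma over 21729 probe sets bright enough to pass a filter on their mean, and a change was called at a Benjamini-Hochberg adjusted p under 0.05. All 9 heme genes passed the filter, and none lay under the 30th percentile of any array. The hepatocyte markers Alb, Apoa1, Ttr, Tf, Serpina1 and Cps1 were all measured, with a summed signal of at least 192834.0 on every array. Apoa1 was called higher than at 0h at 2 weeks and lower at 6 weeks, and the others were not called against 0h. Its mean signals were 21476 at 0h, 29239 after 2 weeks, 21763 after 4 weeks and 16496 after 6 weeks. The 0h arrays also stood apart in other features. The summed signal of 9 pancreatic acinar markers was 7320.5 to 8086.1 at 0h, against 914.4 to 1220.7 after 2 weeks, 781.2 to 927.9 after 4 weeks and 1094.1 to 1546.9 after 6 weeks, and Cpa1, a pancreatic carboxypeptidase, had signals of no more than 72.9 on any fed array, against 6211.6, 6537.7 and 6043.6 at 0h. The other 8 acinar markers summed to 1276.9 to 1548.4 at 0h, 885.1 to 1153.5 after 2 weeks, 765.3 to 921.4 after 4 weeks and 1049.4 to 1538.2 after 6 weeks, so that the 6-week and 0h arrays overlapped. Of the acinar markers, Pnlip, pancreatic lipase, was called higher than at 0h at all 3 times, with mean signals of 57.4 at 0h, 104 after 2 weeks, 110 after 4 weeks and 98.2 after 6 weeks, calls that were all lost without replicate 1 of 0h and, at 1 time or another, without replicate 2 of 0h, replicate 1 or 2 of 2 weeks, replicate 2 of 4 weeks, or replicate 1 or 2 of 6 weeks. Of the 4 tested acinar markers, 2 were called lower and 1 higher than at 0h at each time. Lower calls took in 10.8%, 12.3% and 10.3% of all probe sets, and higher calls 10.8%, 9.76% and 9.4%. Cpa1 was lower at all 3 times, Cela1 at 2 and 4 weeks and Cpb1 at 6 weeks. Cela1 had mean signals of 1023 at 0h, 598 after 2 weeks, 443 after 4 weeks and 914 after 6 weeks. The Cela1 call at 2 weeks and the Cpb1 call at 6 weeks were each lost in 6 of 22 alternative settings. Prss2, a trypsinogen, was under the 30th percentile on all arrays. The log2 ratio of 3′ to 5′ GAPDH signal, a sign of RNA integrity, lay between 0.11 and 0.25 at 0h, 0.44 and 0.49 after 2 weeks, 0.30 and 0.36 after 4 weeks and 0.28 and 0.35 after 6 weeks. By this ratio the 2-week arrays also stood apart, above all others. The same ratio for beta-actin set neither the 0h nor the 2-week arrays apart. It lay between 1.1 and 1.44 at 0h, 1.28 and 1.51 after 2 weeks, 0.98 and 1.41 after 4 weeks and 1.37 and 1.5 after 6 weeks. The part of these features in the results was not tested. In bulk tissue, fewer cells of a type and less RNA per cell cannot be told apart.

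After 2 weeks, 7 of the 9 heme genes were called higher than at 0h and none lower, while 10.8% of all tested probe sets were called higher and 10.8% lower, 21.6% in all. Both ALA synthases, Uros, Cpox, Fech, Hmox1 and Blvrb rose. Alad and Urod did not pass the test. After 4 weeks, 4 genes were called higher (Alas2, Cpox, Fech and Blvrb) and 2 lower (Alas1 and Hmox1), against 9.76% and 12.3% of all probe sets, 22% in all. After 6 weeks, 3 were higher (Cpox, Fech and Blvrb) and 1 lower (Hmox1), against 9.4% and 10.3%, 19.7% in all. The median change of the 9 genes on the log2 scale was 0.52 at 2 weeks, 0.34 at 4 weeks and 0.24 at 6 weeks, beside -0.02, -0.05 and -0.02 over all tested probe sets. These 3 comparisons share the 0h arrays.

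**Figure D1:**
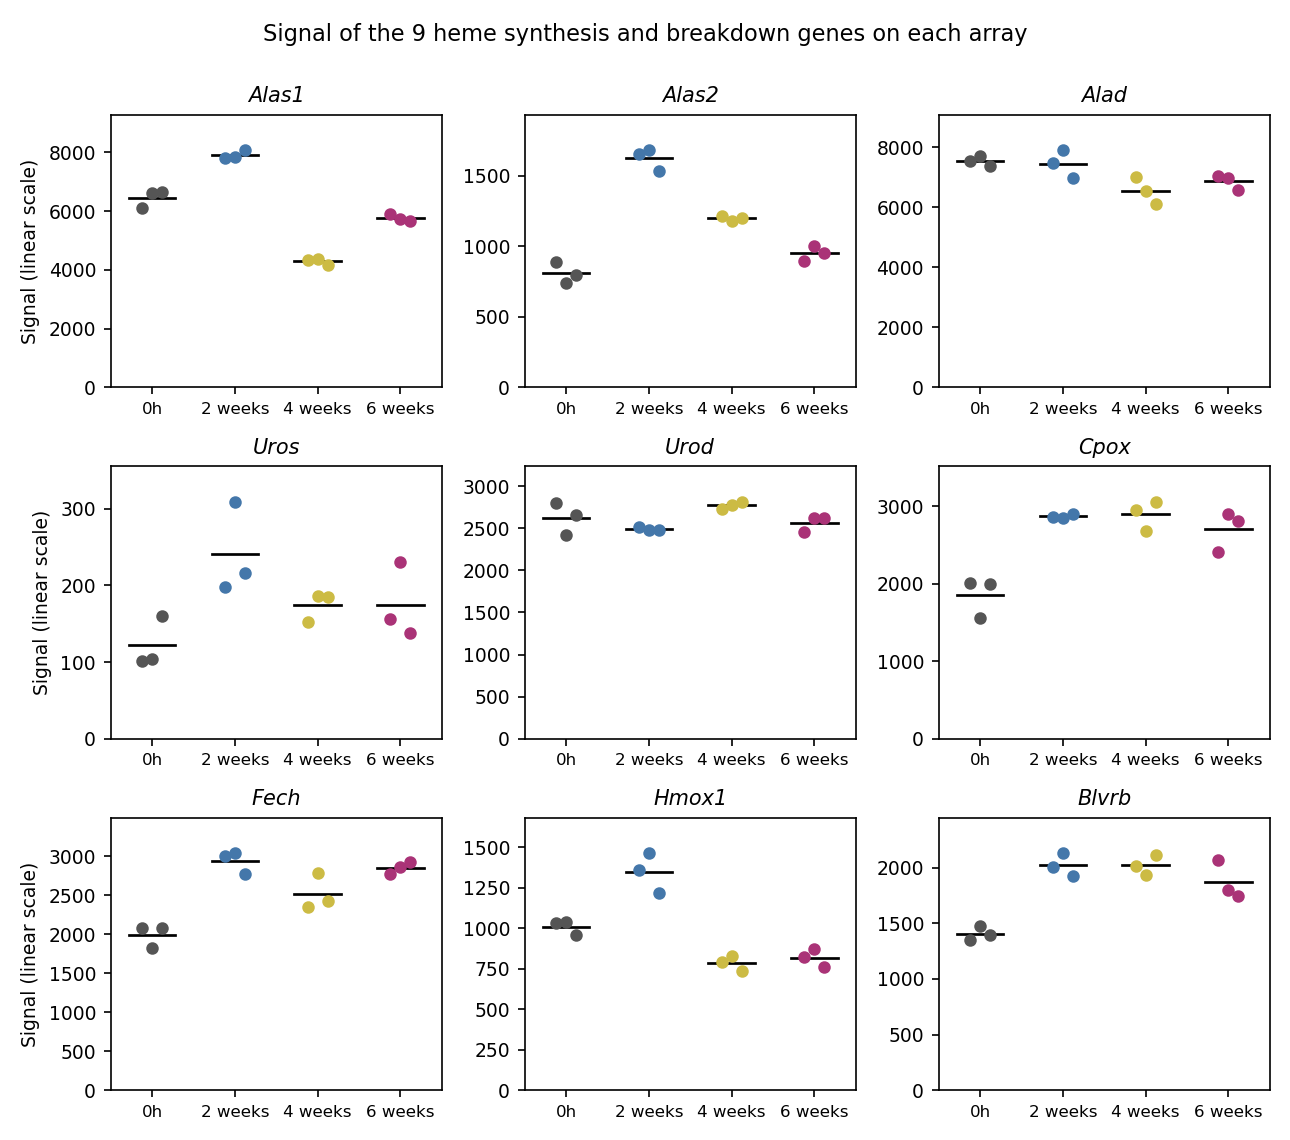
Signal of the 9 heme genes on a linear scale (vertical axis) on each of the 12 arrays (points), by feeding time (horizontal axis, 0h to 6 weeks); the bar is the mean of the 3 arrays of a group. Each panel starts at 0 and has its own scale. The 3 Alas2 points at 2 weeks lie between 1538.5 and 1681.7, above all others, and the 3 Alas1 points at 4 weeks lie between 4151.0 and 4357.7, below all others.

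The fed groups were also compared with each other. At 4 weeks against 2 weeks, Alas1, Alas2 and Hmox1 were called lower and no member higher, while 4.79% of all probe sets were called lower and 3.12% higher, 7.91% in all. For 6 weeks against 4 weeks, Alas1 was called higher and Alas2 lower, while 3.44% of all probe sets were called higher and 2.65% lower, 6.09% in all. Cpox, Fech and Blvrb had no called step between feeding times.

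**Figure D2:**
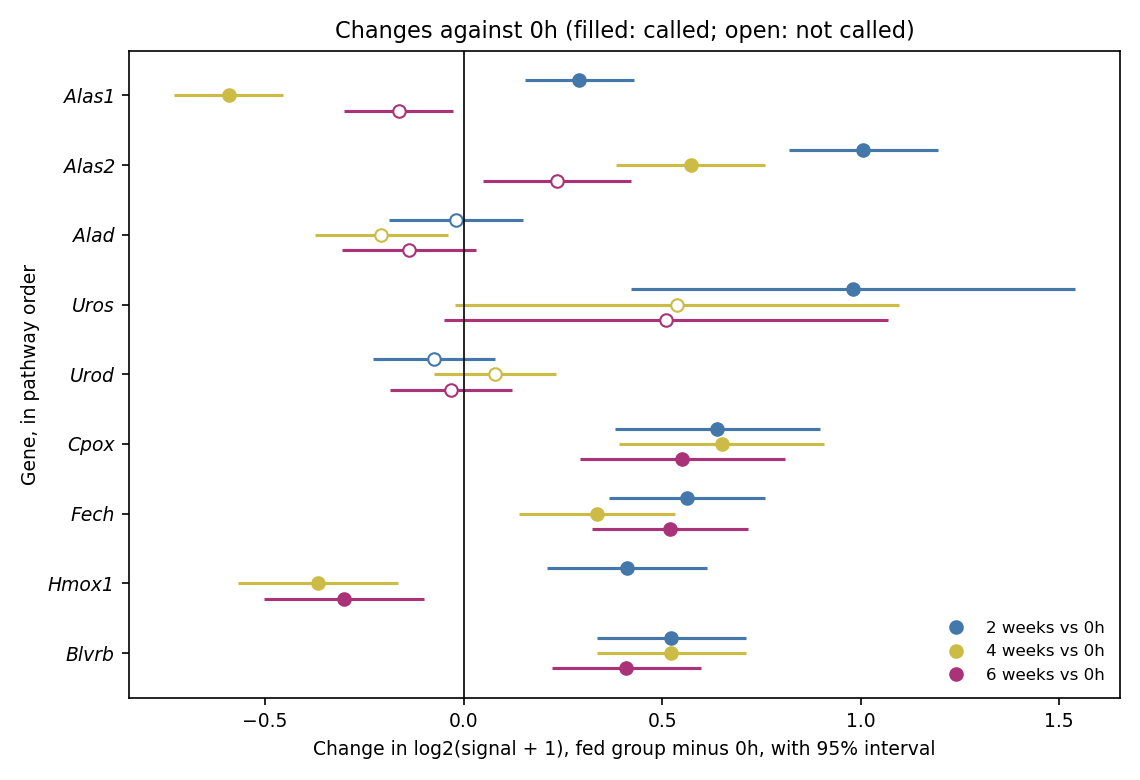
Change in log2(signal + 1) of each heme gene (horizontal axis) at 2, 4 and 6 weeks minus 0h, with limma's 95% interval (lines), genes in pathway order on the vertical axis. Filled points are changes with an adjusted p under 0.05; Cpox, Fech and Blvrb are filled and right of 0 at all 3 times, while Alas1 and Hmox1 lie right of 0 at 2 weeks and left of it at 4 and 6 weeks.

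Alas1 opens the pathway in hepatocytes, and its direction against 0h was not the same at all feeding times. Its signals were 6121.3, 6600.1 and 6659.4 at 0h, 7804.4, 7826.6 and 8067.9 after 2 weeks, 4349.5, 4357.7 and 4151.0 after 4 weeks and 5903.3, 5720.7 and 5673.0 after 6 weeks. No 2 groups overlapped: every 2-week array lay above, and every 4-week and 6-week array below, all 0h arrays. Against 0h it rose 1.22-fold at 2 weeks (log2 change 0.29 ± 0.06 SE, limma adjusted p = 0.00837, n = 3 each). At 4 weeks it fell 1.51-fold against 0h (-0.59 ± 0.06, adjusted p = 0.000177) and 1.84-fold against 2 weeks (-0.88 ± 0.06, adjusted p = 3.02e-05). The 6-week signal was 1.35-fold above that at 4 weeks (0.43 ± 0.06, adjusted p = 0.00337), and its difference from 0h did not pass the test (-0.16, 95% interval -0.30 to -0.03, adjusted p = 0.095). When only the arrays of the 2 groups compared were fitted, the rise at 2 weeks (adjusted p = 0.0532) and the step from 4 to 6 weeks (adjusted p = 0.0627) no longer passed.

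The RefSeq promoter of Alas1 (GRCr8, chr8:115768593-115768892, minus strand, 250 bases before to 50 after the gene's start) is printed first because this gene turned, and those of Fech (chr18:60248476-60248775, minus strand) and Blvrb (chr1:91866008-91866307, plus strand) follow as genes called higher at all 3 times. All run 5′ to 3′, with matches to any of 8 searched motifs in capitals on whichever strand they lie.
Alas1: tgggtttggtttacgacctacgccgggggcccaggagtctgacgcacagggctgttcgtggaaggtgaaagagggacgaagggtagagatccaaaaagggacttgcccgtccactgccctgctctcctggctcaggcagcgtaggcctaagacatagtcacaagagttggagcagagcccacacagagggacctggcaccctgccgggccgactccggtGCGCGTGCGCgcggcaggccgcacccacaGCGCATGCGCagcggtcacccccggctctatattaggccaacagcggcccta
Fech: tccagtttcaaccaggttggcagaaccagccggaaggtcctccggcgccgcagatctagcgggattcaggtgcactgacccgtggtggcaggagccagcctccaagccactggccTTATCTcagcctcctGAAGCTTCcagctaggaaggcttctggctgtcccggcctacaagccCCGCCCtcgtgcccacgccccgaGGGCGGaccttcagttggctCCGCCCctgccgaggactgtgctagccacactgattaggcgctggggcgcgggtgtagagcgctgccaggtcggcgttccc
Blvrb: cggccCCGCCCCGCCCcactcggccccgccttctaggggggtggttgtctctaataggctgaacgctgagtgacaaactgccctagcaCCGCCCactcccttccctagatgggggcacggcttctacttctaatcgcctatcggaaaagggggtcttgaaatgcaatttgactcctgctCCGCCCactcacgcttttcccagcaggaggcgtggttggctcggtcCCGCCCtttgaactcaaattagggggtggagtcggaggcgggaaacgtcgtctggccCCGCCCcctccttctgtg
The motifs searched on both strands were the NRF1 type (GCGCA followed, past 1 base of any kind, by GCGC), the erythroid type AGATAA, the E-box CACGTG, the AP-1 type TGANTCA, the antioxidant response type TGACNNNGC, the heat shock type GAANNTTC, the nuclear receptor type AGGTCA and the GC box, which reads GGGCGG. Alas1 held the NRF1 type at bases -31 to -22 and at -2 to 8, counted with the first base of the gene as 1 and no base 0, and none of the other motifs; 4.25% of 33469 RefSeq promoter windows of 300 bases hold that motif. Fech held AGATAA at -135 to -130 (11.6% of windows) and GAANNTTC at -120 to -113 (8.59%), besides 3 GC boxes, and Blvrb held 6 GC boxes and no other motif. The GC box was found in 4 of the 5 members with a window at the gene's outermost start (Alad, Urod, Fech and Blvrb), against 33.1% of all windows, and CACGTG in Alad and Urod, against 6.42%. Capitals that run past 1 motif length are neighbouring or overlapping GC boxes. Uros and Alas2 have windows that start inside the gene's annotated span, which were not used, and Cpox and Hmox1 have no window in the table. These matches describe letters only.

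Regulators known to act on Alas1 or Hmox1 changed against 0h in both directions: of 11 tested, 3 rose and 6 fell at 2 weeks, 2 rose and 6 fell at 4 weeks, and 4 fell at 6 weeks. The median change of this list was -0.40, -0.40 and -0.17 on the log2 scale at the 3 times, beside -0.02, -0.05 and -0.02 over all tested probe sets. Among all probe sets, 10.8%, 9.76% and 9.4% were called higher at these times and 10.8%, 12.3% and 10.3% lower. Nr1d1, the clock repressor REV-ERB alpha that binds heme, had signals of no more than 66.6 on any fed array, against 651.9, 719.5 and 786.4 at 0h. Nr1d2, its paralogue, fell 6.43-fold after 2 weeks, 5.14-fold after 4 weeks and 5.51-fold after 6 weeks (limma adjusted p of 3.47e-05, 7.41e-05 and 5.39e-05). Hnf4a, a hepatocyte master factor, fell 1.71-fold, 2.00-fold and 1.82-fold at the 3 times (adjusted p = 0.000469, 9.92e-05 and 0.000234). Both genes were below their 0h level at all 3 times. Nr1i3, the drug-sensing receptor CAR, rose 1.93-fold at 2 weeks (adjusted p = 0.000311) and 1.29-fold at 4 weeks (adjusted p = 0.0375) and was lower at 4 weeks than at 2 weeks (-0.58 ± 0.11, adjusted p = 0.0105). Its call at 4 weeks against 0h was lost in 10 of 22 alternative settings, among them without any 1 of the 0h arrays, replicate 1 or 3 of 2 weeks, or replicate 2 or 3 of 4 weeks (highest adjusted p = 0.119). The other rise at 4 weeks, that of Rora, a nuclear receptor of the clock, was also lost in 10 of 22 settings (highest adjusted p = 0.12), among them without any 1 of the 0h arrays, replicate 2 of 2 weeks, replicate 2 or 3 of 4 weeks, or replicate 3 of 6 weeks. Without any 1 of the 0h arrays or replicate 2 or 3 of 4 weeks, 0 regulators rose at 4 weeks. At 2 weeks the rise of Foxo1, a factor of the fasting response, was lost in 7 of 22 settings, among them without replicate 2 or 3 of 0h or any 1 of the 2-week arrays (highest adjusted p = 0.111). The coactivator Ppargc1a, Nrf1 and Bach1 were below the filter on dim probe sets and were not tested. No test was made of the part of the regulators in the Alas1 and Hmox1 results.

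The summed signal of the neutrophil markers was highest at 2 weeks and lowest at 4 weeks, as Alas1 was. The summed signal of the 4 measured of 6 listed markers was 4284.7 to 4567.2 at 0h, 7774.8 to 8043.3 after 2 weeks, 2238.0 to 2380.3 after 4 weeks and 4348.5 to 4533.0 after 6 weeks. Nearly all of it came from S100a8 and S100a9, with means of 2511 and 5308 at 2 weeks. Csf3r, with group means from 61.0 to 85.9, was called in no comparison, and Cxcr2 was below the filter and was not tested. S100a8, a calcium-binding protein of neutrophils, rose 1.72-fold at 2 weeks (limma adjusted p = 0.000692) and fell 2.31-fold at 4 weeks (adjusted p = 5.55e-05). The part of these markers in the Alas1 result was not tested.

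Alas2, the red cell form, was higher at 2 and 4 weeks than at 0h. Its signals were 893.0, 737.4 and 799.1 at 0h, 1652.8, 1681.7 and 1538.5 after 2 weeks, 1215.9, 1182.9 and 1203.7 after 4 weeks and 895.7, 1002.0 and 956.8 after 6 weeks. The 4 groups did not overlap, and the 6-week arrays lay just above the highest 0h array. Against 0h the rise was 2.01-fold at 2 weeks (1.01 ± 0.08, limma adjusted p = 4.7e-05) and 1.49-fold at 4 weeks (0.57 ± 0.08, adjusted p = 0.00121), and at 6 weeks the difference of 0.24 (95% interval 0.05 to 0.42) did not pass the test (adjusted p = 0.0801). At 4 weeks Alas2 was 1.35-fold below 2 weeks (-0.43 ± 0.08, adjusted p = 0.0126), and at 6 weeks 1.26-fold below 4 weeks (-0.34 ± 0.08, adjusted p = 0.0457). The first of these steps was lost without replicate 2 of 2 weeks (adjusted p = 0.0519). The second was lost in 14 of 22 alternative settings, where its adjusted p ranged from 0.0113 to 0.135, and it remained called among the left-out arrays only without replicate 1 or replicate 2 of 0h.

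Markers of red cells and their precursors were measured beside Alas2. Of 18 listed, 13 had a probe set and 8 passed the filter, and none was under the 30th percentile on all arrays. The summed signal was 63437.7 to 70144.2 at 0h, 80230.5 to 84583.4 after 2 weeks, 67882.7 to 75900.8 after 4 weeks and 63337.2 to 68561.7 after 6 weeks, so that the 2-week arrays lay above all others. Most of this sum came from the globins Hba-a2 and Hbb, with means of 38790 and 32953 at 2 weeks, and Hba-a2 was not called at that time. At 2 weeks 3 of the 8 tested markers rose and none fell, while 10.8% of all probe sets were called higher and 10.8% lower. The median log2 change of the 8 was 0.37. Slc4a1, the band 3 anion exchanger of the red cell membrane, had signals of 539.8, 598.1 and 645.2 at 2 weeks against 319.4, 254.5 and 284.4 at 0h, a 2.08-fold rise (1.05 ± 0.15, limma adjusted p = 0.00101). Tfrc, the transferrin receptor, which many other cells express too, rose 2.41-fold (adjusted p = 4.17e-06), and the globin Hbb 1.22-fold (adjusted p = 0.0203). The Hbb call was lost in 5 of 22 settings, among them without replicate 3 of 0h or replicate 1 or 2 of 2 weeks (highest adjusted p = 0.0711).

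At 4 weeks no red cell marker was called against 0h, while Alas2 was, and 22% of all probe sets were. Slc4a1 had a log2 change of 0.22 ± 0.15 (limma adjusted p = 0.343) and Hbb one of 0.15 ± 0.07 (adjusted p = 0.187). At 4 weeks against 2 weeks, 3 of the 8 markers fell (Tfrc, Slc4a1 and Gypc), against 4.79% of all probe sets. Slc4a1 fell 1.79-fold (limma adjusted p = 0.00855). The Gypc call was lost in 15 of 22 settings (highest adjusted p = 0.13), among them without any 1 of the 2-week or 4-week arrays, replicate 1 or 3 of 0h, or replicate 2 or 3 of 6 weeks, and that of Slc4a1 with only the 2 groups fitted (adjusted p = 0.0574). At 6 weeks against 0h, 1 of the 8 rose and 1 fell, against 9.4% and 10.3% of all probe sets. Tfrc rose 1.32-fold (adjusted p = 0.00394), and Ahsp, the chaperone of alpha globin, fell 1.78-fold (adjusted p = 0.0077). The erythroid factors Gata1 and Klf1 were below the filter and were not tested. The part of these markers in the Alas2 result was not tested.

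**Figure D3:**
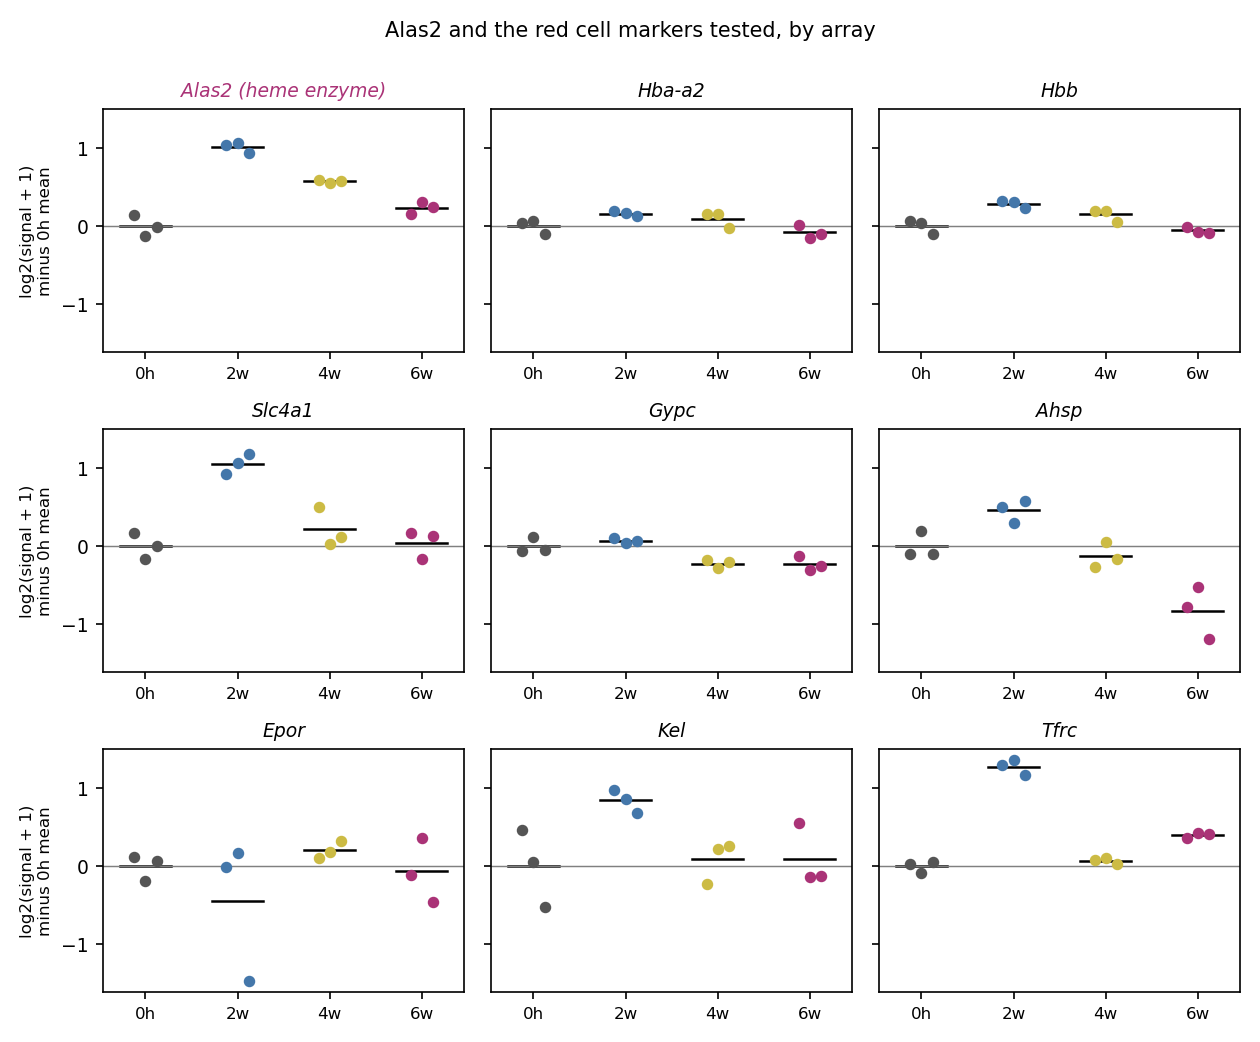
Alas2 and the 8 tested red cell markers on each array (points) as log2(signal + 1) minus the mean of the 0h arrays (vertical axis), by feeding time (horizontal axis); bars are group means and all panels share 1 scale. At 2 weeks Alas2 (1.01), Slc4a1 (1.05) and Tfrc (1.27) stand above 0 on all 3 arrays, and at 4 weeks Alas2 (0.57) does with little spread.

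The middle of the pathway split into enzymes that rose and enzymes that did not pass the test. Alad, which condenses ALA into porphobilinogen and is the target of lead, had signals between 7374.6 and 7717.4 at 0h, 6985.6 and 7897.1 after 2 weeks, 6114.2 and 7000.9 after 4 weeks and 6576.8 and 7034.6 after 6 weeks. The 4-week and 6-week arrays all lay below the 0h arrays, but the changes of -0.21 ± 0.08 and -0.14 ± 0.08 did not pass (limma adjusted p = 0.0797 and 0.248). At 4 weeks Alad passed under 4 of 22 alternative settings, with its lowest adjusted p at 0.0126. Urod, which decarboxylates uroporphyrinogen, had group means of 2628 ± 189 at 0h, 2492 ± 19 after 2 weeks, 2773 ± 43 after 4 weeks and 2569 ± 97 after 6 weeks (SD, n = 3 each). Its 95% intervals against 0h were -0.23 to 0.08 at 2 weeks, -0.07 to 0.23 at 4 weeks and -0.18 to 0.12 at 6 weeks on the log2 scale.

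Uros, the uroporphyrinogen III synthase that closes the ring, had the widest spread. It had signals of 101.9, 103.8 and 160.6 at 0h, 197.5, 309.1 and 216.2 after 2 weeks, 152.3, 185.6 and 185.4 after 4 weeks and 155.9, 230.2 and 137.4 after 6 weeks. Only the 2-week arrays lay wholly above the 0h arrays. The 2-week rise was 1.97-fold (0.98 ± 0.25, limma adjusted p = 0.0206), and it no longer passed without replicate 1 of 0h (adjusted p = 0.0713), replicate 2 of 0h (0.0678) or replicate 2 of 2 weeks (0.0721), or with only the 2 groups fitted (0.0556). The differences of 0.54 ± 0.25 at 4 weeks and 0.51 ± 0.25 at 6 weeks did not pass (adjusted p = 0.161 and 0.195).

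Cpox, the coproporphyrinogen oxidase of the space between the mitochondrial membranes, rose at every feeding time. It had signals of 2016.6, 1556.2 and 1995.2 at 0h, 2862.4, 2848.2 and 2904.5 after 2 weeks, 2952.1, 2677.4 and 3061.0 after 4 weeks and 2409.7, 2908.4 and 2812.5 after 6 weeks. All 9 fed arrays lay above the 3 normal ones, while the fed groups overlapped one another. Its rise against 0h was 1.56-fold at 2 weeks (0.64 ± 0.12, limma adjusted p = 0.00377), 1.57-fold at 4 weeks (0.65 ± 0.12, adjusted p = 0.00345) and 1.47-fold at 6 weeks (0.55 ± 0.12, adjusted p = 0.00841). The steps of 0.01 from 2 to 4 weeks and -0.10 from 4 to 6 weeks had 95% intervals of -0.25 to 0.27 and -0.36 to 0.16.

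Fech, ferrochelatase, completes heme by inserting iron, and it too rose at all 3 times. Its signals were 2076.8, 1820.7 and 2077.1 at 0h, 3007.7, 3039.2 and 2770.1 after 2 weeks, 2346.1, 2778.5 and 2425.5 after 4 weeks and 2766.0, 2860.4 and 2931.4 after 6 weeks. Every fed array exceeded every 0h array, and the 4-week arrays spread widest. It rose 1.48-fold after 2 weeks (0.56 ± 0.09, limma adjusted p = 0.00176), 1.26-fold after 4 weeks (0.34 ± 0.09, adjusted p = 0.0224) and 1.43-fold after 6 weeks (0.52 ± 0.09, adjusted p = 0.00278). The 4-week call was lost without replicate 2 of 0h (adjusted p = 0.0737) or replicate 2 of 4 weeks (0.0738), without the filter on dim probe sets (0.0527) and with only the 2 groups fitted (0.101).

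Of 3 other enzymes of the pathway that were set beside the members, limma called 0 in any of the 5 comparisons. Ppox, the enzyme between Cpox and Fech, had log2 changes of 0.11, 0.39 and 0.27 at 2, 4 and 6 weeks against 0h, each with an SE of 0.21. Among the breakdown enzymes, Hmox2, the constitutive heme oxygenase, had -0.21, 0.09 and -0.14, and Blvra, the main biliverdin reductase of adults, 0.04, -0.40 and -0.23 (lowest adjusted p = 0.0757, at 4 weeks). At an unadjusted p under 0.05, 5 of the 15 gene comparisons passed: 3 of Hmox2 and 2 of Blvra.

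**Figure D4:**
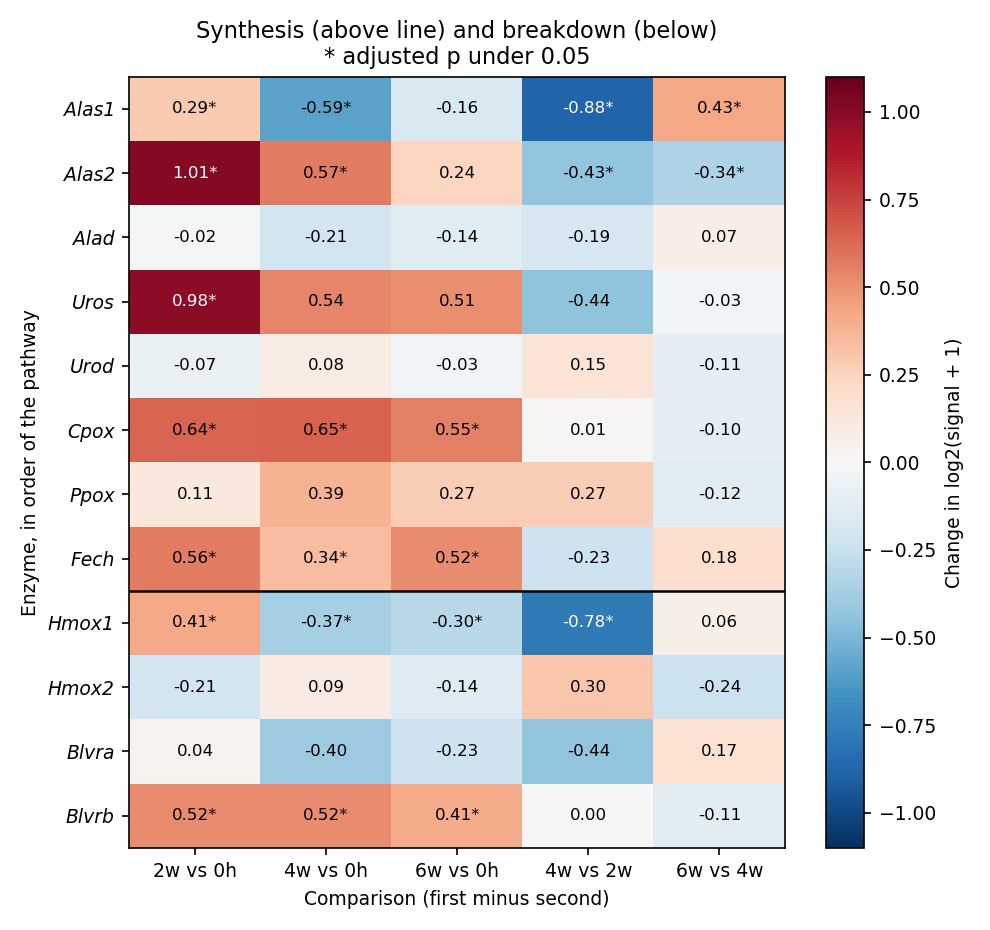
Changes in log2(signal + 1) for 12 enzymes of heme synthesis (above the line) and breakdown (below it), in pathway order down the vertical axis and by comparison along the horizontal axis, each the first group minus the second; red is higher, blue lower, and a star marks an adjusted p under 0.05. Starred rises at all 3 times against 0h stand in Cpox, Fech and Blvrb, and the darkest blue in the step from 2 to 4 weeks in Alas1 (-0.88) and Hmox1 (-0.78).

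Genes that bring substrate, iron and porphyrin to the mitochondrial steps were counted next, and the called ones mostly rose. Of 15 tested, 4 rose and none fell at 2 weeks, 6 rose and 1 fell at 4 weeks, and 5 rose and none fell at 6 weeks, with median log2 changes of 0.05, 0.17 and 0.13, beside -0.02, -0.05 and -0.02 over all tested probe sets. Of all probe sets, 10.8%, 9.76% and 9.4% were called higher at these times. Over the 22 alternative settings the number of genes that rose was 1 to 5, 5 to 7 and 2 to 6, and with 1 array left out 2 to 4, 5 to 6 and 3 to 5. It was 2 at 2 weeks without replicate 2 of 0h or replicate 1 or 2 of 2 weeks, and 3 at 6 weeks without replicate 1 of 0h or replicate 2 of 6 weeks. Clpx, a mitochondrial unfoldase that in human cells governs the turnover of ALA synthase, rose 1.41-fold, 1.48-fold and 1.25-fold (limma adjusted p = 0.000732, 0.000338 and 0.00713). Sucla2, a subunit of an enzyme that interconverts succinate and succinyl-CoA, rose 1.34-fold at 4 weeks (adjusted p = 0.00339). Glrx5, which passes on iron-sulfur clusters, rose 1.26-fold at the same time (adjusted p = 0.00415). Abcb10, a transporter of the inner mitochondrial membrane, moved the other way at 4 weeks: it fell 1.60-fold against 0h (adjusted p = 0.00152) and 1.63-fold against 2 weeks (adjusted p = 0.00325), and at 6 weeks lay 1.35-fold above 4 weeks (adjusted p = 0.0385). The last of these calls was lost in 13 of 22 settings (highest adjusted p = 0.124), among them without any 1 of the 4-week or 6-week arrays, replicate 2 of 0h or replicate 1 of 2 weeks, and that of Clpx at 6 weeks with only the 2 groups fitted (adjusted p = 0.0569). At 2 weeks Abcb10 differed from 0h by 0.02 ± 0.10 (limma adjusted p = 0.903).

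Liver proteins that carry heme served as users of the pathway. Of 9 tested, 3 rose and 2 fell at 2 weeks, 4 rose and 2 fell at 4 weeks, and 2 rose and 2 fell at 6 weeks. Over the 22 alternative settings the number that rose was 2 to 5, 3 to 6 and 2 to 4 at these times, and the number that fell was 2 in each. Higher calls took in 10.8%, 9.76% and 9.4% of all probe sets, and lower calls 10.8%, 12.3% and 10.3%. Cyp2c11, a male-specific steroid hydroxylase of rat liver, rose 1.72-fold at 4 weeks (limma adjusted p = 7.41e-05). Cyp7a1 and Cyp8b1, which shape bile acids, were 6.74-fold and 2.32-fold lower at that time than at 0h (adjusted p = 5.43e-08 and 1.67e-06). Por, on the same list but not counted here, carries no heme. It is the flavoprotein that feeds electrons to microsomal cytochrome P450 enzymes and to heme oxygenase, and it fell 1.42-fold at 4 weeks against 2 weeks (adjusted p = 0.00454) and rose 1.41-fold at 6 weeks against 4 weeks (adjusted p = 0.00564). With only the 2 groups fitted, the second of these steps did not pass (adjusted p = 0.0659).

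Hmox1, the inducible heme oxygenase and the first enzyme of breakdown, was higher than at 0h only at 2 weeks. It had signals of 1033.2, 1038.7 and 957.6 at 0h, 1357.5, 1464.7 and 1219.9 after 2 weeks, 790.2, 826.2 and 734.1 after 4 weeks and 823.1, 873.2 and 763.1 after 6 weeks. The 2-week arrays lay above, and the 4-week and 6-week arrays below, every 0h array. Hmox1 rose 1.33-fold at 2 weeks (0.41 ± 0.09, limma adjusted p = 0.00988) and fell 1.29-fold at 4 weeks (-0.37 ± 0.09, adjusted p = 0.0172) and 1.23-fold at 6 weeks (-0.30 ± 0.09, adjusted p = 0.0421). The direct step was a 1.72-fold fall at 4 weeks against 2 weeks (-0.78 ± 0.09, adjusted p = 0.000793), which was called under all 22 alternative settings, and 6 weeks differed from 4 weeks by 0.06 ± 0.09 (adjusted p = 0.759). The fall at 4 weeks against 0h was lost without replicate 1 of 0h (adjusted p = 0.0553), replicate 2 of 0h (0.0534) or replicate 3 of 4 weeks (0.0554) and with each array centred on its median (0.0932). That at 6 weeks was lost in 13 of 22 settings, with an adjusted p from 0.0147 to 0.141, among them without any 1 of the 0h or 6-week arrays, replicate 1 of 2 weeks, or replicate 1 or 2 of 4 weeks.

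Markers of Kupffer cells and other macrophages had their highest summed signal at 2 weeks and their lowest at 4 weeks. Of 12 listed, 10 were measured, all passed the filter, and none was under the 30th percentile on all arrays. Their summed signal was 38550.9 to 39448.2 at 0h, 44065.9 to 46779.6 after 2 weeks, 31445.8 to 31846.0 after 4 weeks and 36303.7 to 37729.0 after 6 weeks, with no overlap of any 2 groups. Hmox1 was also highest at 2 weeks, but its 4-week and 6-week arrays overlapped. The order of the 4 groups by marker sum was that of Alas1. At 2 weeks 2 markers rose and none fell against 0h, at 4 weeks 7 fell and none rose, and at 6 weeks 1 rose and 4 fell. The shares of all probe sets called higher were 10.8%, 9.76% and 9.4%, and those called lower 10.8%, 12.3% and 10.3%. In the step from 2 to 4 weeks all 10 markers fell, against 4.79% of all probe sets, with a median of -0.63 against -0.03 over all probe sets. Part of these calls were lost in other settings. With 1 array left out, 7 to 10 markers fell in that step (6 to 10 over all 22 settings), and Cd5l lost its call in 15 of 22 settings, among them without any 1 array other than replicate 3 of 2 weeks, and Cd68 in 6, among them without replicate 1 or 2 of 2 weeks or of 4 weeks. At 4 weeks against 0h, 5 to 7 fell with 1 array left out (4 to 8 over all 22 settings), Clec4f losing its call in 12 settings and Cd68 in 13, both without any 1 of the 0h arrays among others. The rise at 6 weeks was that of Cd5l, lost in 16 of 22 settings, among them without any 1 array other than replicate 3 of 2 weeks, while the number that fell there was 4 in every setting. Cd163, the receptor that takes up hemoglobin bound to haptoglobin, had signals of 415.5, 529.9 and 415.9 after 4 weeks and 410.9, 453.1 and 454.9 after 6 weeks, against 710.5, 783.7 and 816.4 at 0h. That was a 1.70-fold fall at 4 weeks (limma adjusted p = 0.00128) and a 1.75-fold fall at 6 weeks (adjusted p = 0.00103), while at 2 weeks its change of 0.21 ± 0.11 did not pass (adjusted p = 0.216). Csf1r, the receptor for the macrophage growth factor, rose 1.53-fold at 2 weeks (adjusted p = 0.00105). The part of these markers in the Hmox1 and Alas1 results was not tested.

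**Figure D5:**
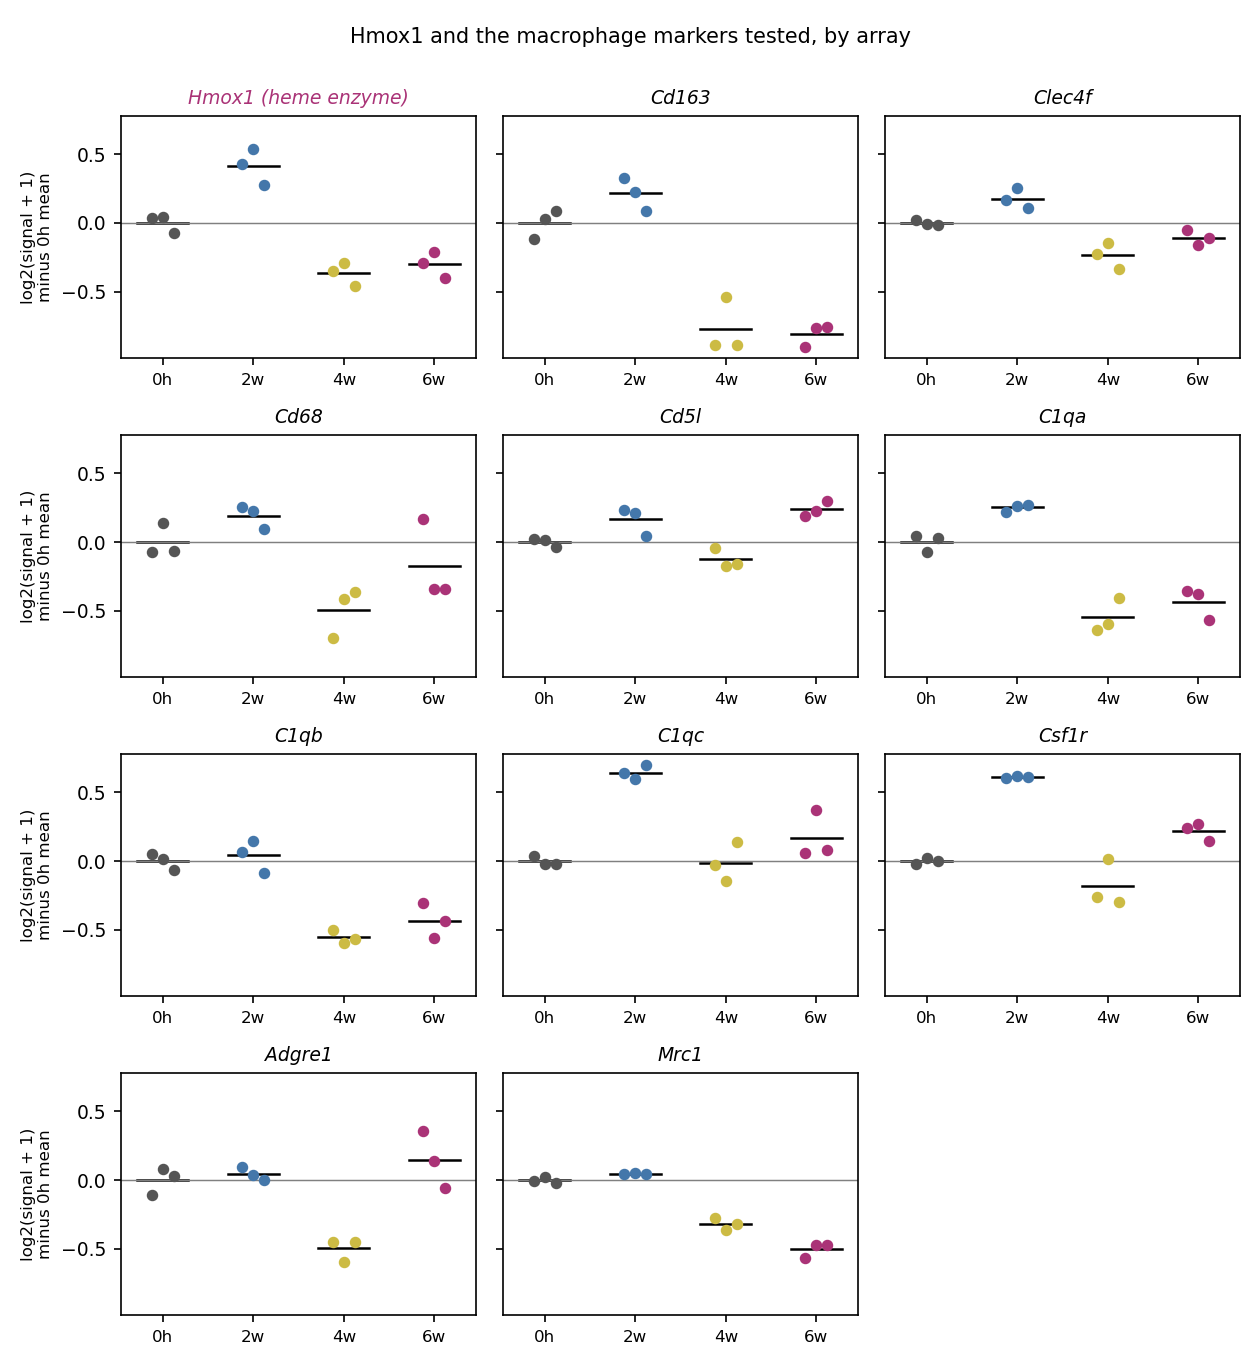
Hmox1 and the 10 tested macrophage markers on each array (points) as log2(signal + 1) minus the mean of the 0h arrays (vertical axis), by feeding time (horizontal axis); bars are group means and all panels share 1 scale. Hmox1 lies at 0.41, -0.37 and -0.30 at 2, 4 and 6 weeks, and Cd163 at 0.21, -0.77 and -0.81.

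Other targets of Nfe2l2, the oxidative stress factor that also drives Hmox1, were set beside it. Of 8 tested, 4 rose and none fell at 2 weeks, 4 rose and 1 fell at 4 weeks, and 3 rose and none fell at 6 weeks, with median log2 changes of 0.21, 0.26 and 0.13. Beside this, 10.8%, 9.76% and 9.4% of all probe sets were called higher and 10.8%, 12.3% and 10.3% lower. Gclc, the catalytic subunit of the first enzyme of glutathione synthesis, rose 2.56-fold, 2.12-fold and 2.54-fold at the 3 times (limma adjusted p = 2.13e-06, 5.72e-06 and 1.38e-06). Its partner subunit Gclm rose 1.78-fold at 4 weeks (adjusted p = 0.000867), Me1, the cytosolic malic enzyme, rose 2.23-fold (adjusted p = 2.59e-06), and Srxn1, sulfiredoxin, fell 1.67-fold (adjusted p = 0.0186). The Srxn1 call was lost in 4 of 22 settings, among them without replicate 3 of 0h or replicate 1 or 3 of 4 weeks (highest adjusted p = 0.0914). Nfe2l2 itself fell 1.32-fold at 2 weeks and 1.31-fold at 4 weeks (adjusted p = 0.00449 and 0.00478). The part of Nfe2l2 in the Hmox1 result was not tested.

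Blvrb, the biliverdin reductase that also reduces flavins, rose at all 3 times. Its signals were 1351.3, 1478.6 and 1390.2 at 0h, 2008.0, 2130.0 and 1925.7 after 2 weeks, 2012.4, 1934.9 and 2116.1 after 4 weeks and 2072.1, 1797.2 and 1749.0 after 6 weeks. All fed arrays lay above all 0h arrays, and the fed groups overlapped. The rise was 1.44-fold at 2 weeks (0.52 ± 0.08, limma adjusted p = 0.00206), 1.44-fold at 4 weeks (0.52 ± 0.08, adjusted p = 0.00203) and 1.33-fold at 6 weeks (0.41 ± 0.08, adjusted p = 0.00757). At 4 weeks, when Hmox1 was lower than at 0h, Blvrb was higher, and its step from 2 to 4 weeks had a 95% interval of -0.19 to 0.19.

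Heme transport and scavenging genes and those that handle bilirubin completed the outlet side. Of 8 transport genes tested, 2 rose and 1 fell at 2 weeks, 1 rose and 2 fell at 4 weeks, and 2 rose and 2 fell at 6 weeks, Cd163 being one of them. For all probe sets the shares were 10.8%, 9.76% and 9.4% higher and 10.8%, 12.3% and 10.3% lower. Slc46a1, a carrier of folate and, less efficiently, heme, had signals of 1073.9, 903.0 and 839.7 after 2 weeks, 1252.8, 1032.7 and 995.7 after 4 weeks and 834.0, 784.9 and 819.6 after 6 weeks, against 284.8, 359.3 and 398.8 at 0h. It rose 2.71-fold, 3.15-fold and 2.36-fold (limma adjusted p = 0.000146, 5.96e-05 and 0.000347). Flvcr2, a membrane transporter first described as a heme importer, had signals of 46.2 to 143.1 over the 9 fed arrays, against 263.3, 373.7 and 276.3 at 0h, and fell 2.52-fold, 3.96-fold and 3.28-fold (adjusted p = 0.0193, 0.00261 and 0.00589). Hebp1, a cytosolic heme-binding protein, rose 1.28-fold at 2 weeks (adjusted p = 0.0212). At 2 weeks the Flvcr2 call was lost without replicate 2 of 0h (adjusted p = 0.0654) or replicate 2 or 3 of 2 weeks (0.0505 and 0.065), and that of Hebp1 in 6 of 22 settings, among them without replicate 1 or 3 of 0h or replicate 1 or 2 of 2 weeks (highest adjusted p = 0.0954). The plasma scavengers Hpx, hemopexin, and Hp, haptoglobin, had changes between -0.06 and 0.11 at the 3 times and were not called.

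Of 5 bilirubin genes tested, 2 rose and 1 fell at 2 weeks, Abcc3 being one of those that rose, 2 rose at 4 weeks, and 2 rose and 1 fell at 6 weeks. Against these stand 10.8%, 9.76% and 9.4% of all probe sets called higher and 10.8%, 12.3% and 10.3% called lower. Gstm1, a glutathione transferase of the family that binds bilirubin in hepatocytes, rose 1.44-fold, 1.42-fold and 1.36-fold (limma adjusted p = 0.000692, 0.000832 and 0.00185). Abcc2, the canalicular pump that exports conjugated bilirubin, fell 1.33-fold at 2 weeks (adjusted p = 0.00544), differed from 0h by -0.12 ± 0.08 at 4 weeks (adjusted p = 0.344) and fell 2.18-fold at 6 weeks (adjusted p = 1.72e-05). Slco1a1, an organic anion carrier of the blood side, rose 1.34-fold at 4 weeks and 1.58-fold at 6 weeks (adjusted p = 0.00206 and 0.000166). Abcc3, an export pump of the blood side, was under the 30th percentile on all 3 arrays at 0h, and its signals at 2 weeks were 79.4, 111.6 and 140.5. It passed the filter through the groups in which it was brighter, was tested in 15 of the 22 alternative settings and lost its call at 2 weeks in 5 of those, among them without replicate 1 or replicate 2 of 0h (limma adjusted p = 0.108 and 0.077).

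The authors' deposited table gives log2 ratios for each of the 9 pairs of a fed array and a 0h array. In the authors' deposited table all 9 pairs had the direction given above for each of the 7 members called at 2 weeks, the 6 called at 4 weeks and the 4 called at 6 weeks. Its sizes differed for some members: the median ratio of Uros at 2 weeks was 0.6 in the authors' deposited table, and that of Hmox1 was 0.2. For Alas2 the authors' deposited table gives medians of 1.2, 0.6 and 0.3 at 2, 4 and 6 weeks.

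The named genes whose log2 signals over the 12 arrays were most like those of Alas1, Alas2 and Hmox1 were found among 14442 named probe sets by Pearson's r, as a description, since all points share the same 4 groups. Insig1, a sterol-sensing protein of the endoplasmic reticulum, followed Alas1 most closely (r = 0.991), with mean signals of 10270.0 at 0h, 14807.5 after 2 weeks, 5911.0 after 4 weeks and 8796.5 after 6 weeks. Next came Cd63 (0.978), Ctss (0.977), S100a8 (0.973) and Serpinb1a (0.963). Like Alas1, Insig1 was highest at 2 weeks and lowest at 4 weeks, which follows from how it was picked. Alas2 was most like Dapk1 (0.976), Mdh2 (0.974), Myc (0.972), Sdf2l1 (0.963) and Ttc13 (0.960). None of these is on the red cell list, of which only 8 genes were tested. Hmox1 was most like Fam111a (0.974), Pla2g4a (0.963), Echdc1 (0.961), Stom (0.958) and Grn (0.953).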

How the data were processed

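Total RNA from 12 rat liver samples was hybridised to 1 array each. The authors deposited signal intensities per probe set on a linear scale, and the submitters' processing notes name GCOS 2.0. Every array had the same mean signal (500.2 to 500.3 after trimming 2% at each end), and the median signal was 117.2 to 129.7. Per the file headers, the same sheet holds the authors' log2 ratios for every pair of a fed and a 0h array and the matching linear ratio, of which only the log2 ratios were used. No detection calls were used.

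Signals were converted to log2(signal + 1), which understates changes of dim genes. After 57 array controls were left out, probe sets with a mean above the 30th percentile (5.45) were tested, 21729 of 31042. Symbols came from the deposited sheet and were updated through the RefSeq gene table of GRCr8, used for names and gene starts (15176 current symbols, 3201 older, 38 by accession, 1483 kept, 11121 without one, 23 with several). One mean per group was fitted with limma 3.58.1 in R 4.3.3 (lmFit, eBayes, 8 residual degrees of freedom), and Benjamini-Hochberg adjustment was made within each of 5 comparisons. Precision is limited by 3 arrays per group. The median SD within groups was 0.21 on the log2 scale, and arrays correlated at 0.960 to 0.969 within groups and 0.940 to 0.961 between them. The procedure was tested on simulated data.

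Named genes are all members, the called genes of largest change in each pathway list, at most 4 a list, and for 3 members the 5 genes of highest Pearson's r. Marker genes, and other genes of a list named for contrast, were picked after their values were seen. The members and lists were chosen with earlier results of these data known. Lists are described by the brightest probe set per gene. Promoters are RefSeq's of GRCr8 and were matched by symbol for 7 of 9 members. The listed genes Flvcr1, Slc48a1, Ugt1a1, Cyp2b1 and Cyp4a1 are not analysed here, and some other listed genes are not reported here. Alternatives were another pseudocount, filter and normalization, 1 probe set per gene, limma's trend and robust options, fits of 2 groups only, the replicate number as a block, and leaving out each array, 22 in all.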

Additional observations from a re-analysis of the deposited data

Results flagged for a closer look

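The effects of feeding for different times differed from each other for 3 genes, tested as the direct step between fed groups in limma, in which the 0h arrays cancel. For Alas1 the level at 4 weeks was 0.88 lower on the log2 scale than at 2 weeks (-0.88 ± 0.06, limma adjusted p = 3.02e-05). Its level at 6 weeks was 0.43 higher than at 4 weeks (0.43 ± 0.06, adjusted p = 0.00337). For Alas2 both steps were negative, -0.43 ± 0.08 at 4 weeks against 2 weeks (adjusted p = 0.0126) and -0.34 ± 0.08 at 6 weeks against 4 weeks (adjusted p = 0.0457). The first of these calls was lost in 2 of 22 alternative settings and the second in 14. For Hmox1 the level at 4 weeks was below that at 2 weeks by 0.78 (-0.78 ± 0.09, adjusted p = 0.000793). In each of these steps the 3 arrays of the later group lay wholly on 1 side of the 3 arrays of the earlier group. Groups of 3 arrays were not tested for single arrays that stand out.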

How the results depend on the processing

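Of 22 called changes of the heme genes over the 5 comparisons, 13 were called under all 22 alternatives. The number called higher at 2 weeks was 5 to 7, at 4 weeks 3 to 4 and at 6 weeks 2 to 4, and the number called lower at 4 against 2 weeks was 2 to 4. The number called lower at 4 weeks (2) was 1 with median centring, 1 to 2 with an array left out and up to 3 in settings in which Alad was called too. The number called lower at 6 weeks (1) was 0 without the filter, with median centring and with only the 2 groups fitted, 2 with 1 probe set per gene and with trend and robust options, and 0 to 1 with an array left out. At 6 against 4 weeks the number called higher (1) was 0 with only the 2 groups fitted. The number called lower there (1) was 0 without the filter, with median centring, with only the 2 groups fitted and with the replicate number as a block, and 0 to 1 with an array left out. Changes near 0 turned sign: Alad at 2 weeks (0.0046) and Urod at 6 weeks (0.0114) with median centring, and Cpox (-0.0124) and Blvrb (-0.0093) at 4 against 2 weeks with quantile normalization. With an array left out, the ranges were -0.0616 to 0.0268 for Alad, -0.0877 to 0.0157 for Urod, -0.0306 to 0.0660 for Cpox, -0.0341 to 0.0386 for Blvrb and -0.2456 to 0.1246 for Uros at 6 against 4 weeks. Cpox at 6 weeks lost its call with only the 2 groups fitted (adjusted p = 0.0598), as did Alas2 at 4 against 2 weeks (0.0510), where fewer arrays estimate the spread. Calls were gained at 6 weeks by Alas1 under 3 and by Alas2 under 5 alternatives. The cause of the other changes was not tested. Of 166 called changes of genes on the pathway and marker lists, 107 were called under every alternative that tested them and none turned sign. Same-numbered arrays did not deviate together (correlations -0.025 to 0.063), so the numbers do not pair the arrays; with the replicate block the other counts stayed at 7, 0, 4, 2, 3, 1, 0, 3 and 1. Uros, the dimmest of the 9 on the arrays, had an SE of 0.25 against 0.06 to 0.12 for the others.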

Other observations

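The platform names another probe set as similar to biliverdin reductase B (LOC307495), which the rule did not include. Its mean signal was 291 at 0h, 377 after 2 weeks, 455 after 4 weeks and 444 after 6 weeks. It was higher than at 0h at 4 weeks (0.65 ± 0.12, limma adjusted p = 0.00459) and at 6 weeks (0.61 ± 0.12, adjusted p = 0.00681) and missed the threshold at 2 weeks (0.38 ± 0.12, adjusted p = 0.054). A probe set named as similar to heme oxygenase 3 (LOC365909) had mean signals of 84.3 at 0h, 58.8 after 2 weeks, 63.4 after 4 weeks and 43.4 after 6 weeks and was called in none of the 5 comparisons. The lymphocyte markers, 7 of 8 measured, had summed signals of 1397.7 to 1470.2 at 0h, 786.7 to 948.3 after 2 weeks, 896.9 to 981.0 after 4 weeks and 1595.1 to 1702.6 after 6 weeks.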
